A study of Mus musculus with 6 samples.

Results

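The 5 genes described here, Mllt3, Klhl9, Mtap, Cdkn2a and Cdkn2b, lie on mouse chromosome 4 around the gene for the microRNA miR-31. They were read from all non-control array probes whose gene name equals one of these 5 symbols, which gave 10 of the 41174 probes on the array and 5 of its 27376 gene names. The rule used position and gene name and no measured value, although earlier results of these data were known when the genes were chosen. Mtap stood at 0.505 times its control level in T cells that lack miR-31, with all 3 cKO arrays below all 3 control arrays, but it did not pass the adjusted threshold over the array. Cdkn2b, read near the background and not tested, was also lower on every cKO array, but its direction turned in an alternative processing with another background correction. Of all tested probes, 20.7% had every cKO array below every control array. Klhl9 and the brightest Mllt3 probe differed by less than the spread between cKO arrays, and Cdkn2a was not well above background on any array.

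Gene expression was measured in induced regulatory T (iTreg) cells, which are naive CD4+ T cells turned into suppressive, Foxp3-expressing cells by TGF-β1 during activation. The 3 cKO mice carried miR-31 fl/fl alleles and the CD4Cre transgene, and the 3 control mice were miR-31 fl/fl without Cre, so that both groups hold the floxed alleles and the loxP sites, and the Cre transgene and the deletion cannot be told apart. CD4Cre acts in T cells from the thymus on, so the locus was already deleted in the naive cells from which each culture began. The floxed allele was made in embryonic stem cells of a strain other than C57BL/6 and backcrossed to C57BL/6J, and the labels give C57BL/6 as background strain. All mice were 6 weeks old. Naive CD4+CD25-Foxp3gfp-CD62Lhi cells were sorted from the spleen of each mouse and cultured for 4 days with 5 µg per ml anti-CD3, 2 µg per ml anti-CD28, 5 ng per ml TGF-β1 and 40 ng per ml IL-2, as the labels give them. Each culture's RNA went on a separate one-colour Agilent array, so that n is 3 mice per group throughout.

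On the array's own annotation (mouse genome build mm9) the 5 genes run in the order Mllt3, Klhl9, Mtap, Cdkn2a, Cdkn2b. The RefSeq gene table, on another build, places Mir31 and its non-coding host transcript between the interferon gene Ifne and Mtap. No array probe lies in that interval: the probe before Mtap is the Ifne probe at chr4:88525626-88525685, and 300.5 kb separate it from the Mtap probe. The deletion itself therefore could not be checked on these arrays. The 2 mature miRNAs that the locus gives, from RefSeq, are shown because their loss is the treatment; they come from the minus strand, and the capitals mark the seed, bases 2 to 8, with which a miRNA recognizes its targets.
miR-31-5p: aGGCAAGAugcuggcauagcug
miR-31-3p: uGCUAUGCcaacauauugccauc

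The genes differ in function, apart from the related inhibitors that Cdkn2a and Cdkn2b encode. Mtap encodes methylthioadenosine phosphorylase, which recycles the by-product of polyamine synthesis into adenine and a precursor of methionine. Cdkn2a encodes the cyclin-dependent kinase inhibitor p16INK4a and, from another first exon and reading frame, the p53 activator p19ARF, and Cdkn2b encodes the related inhibitor p15INK4b, which TGF-β is known to induce in several cell types. Klhl9 is an adaptor of a Cullin-3 ubiquitin ligase that acts in mitosis, and Mllt3 (AF9) belongs to the super elongation complex and also binds the histone methyltransferase Dot1l. In tumours MTAP and CDKN2A are often lost together because they are neighbours.

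Values below are log2 of the processed signal minus the 75th percentile of the same array, so that a difference of 1 is a 2-fold difference. A probe was tested where it was well above the local background on at least 3 of the 6 arrays, which left 22281 probes. Of the 10 member probes 8 were tested, from Mtap, Klhl9 and Mllt3. None of the 8 had an adjusted p under 0.05 in limma, where 0.242% of all tested probes did. An unadjusted p under 0.05 was reached by 2 of the 8, beside 23.0% of all tested probes. Both were lower in cKO cells, as 11.4% of all tested probes were at that threshold. In the same 2 of the 8 the cKO and control arrays did not overlap, beside 36.6% of all tested probes and 20.7% with the cKO arrays lower. The median difference of the 8 was -0.040, beside -0.044 over all tested probes. These shares are given as background, and no test of the 8 probes as a set was made.

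**Figure D1:**
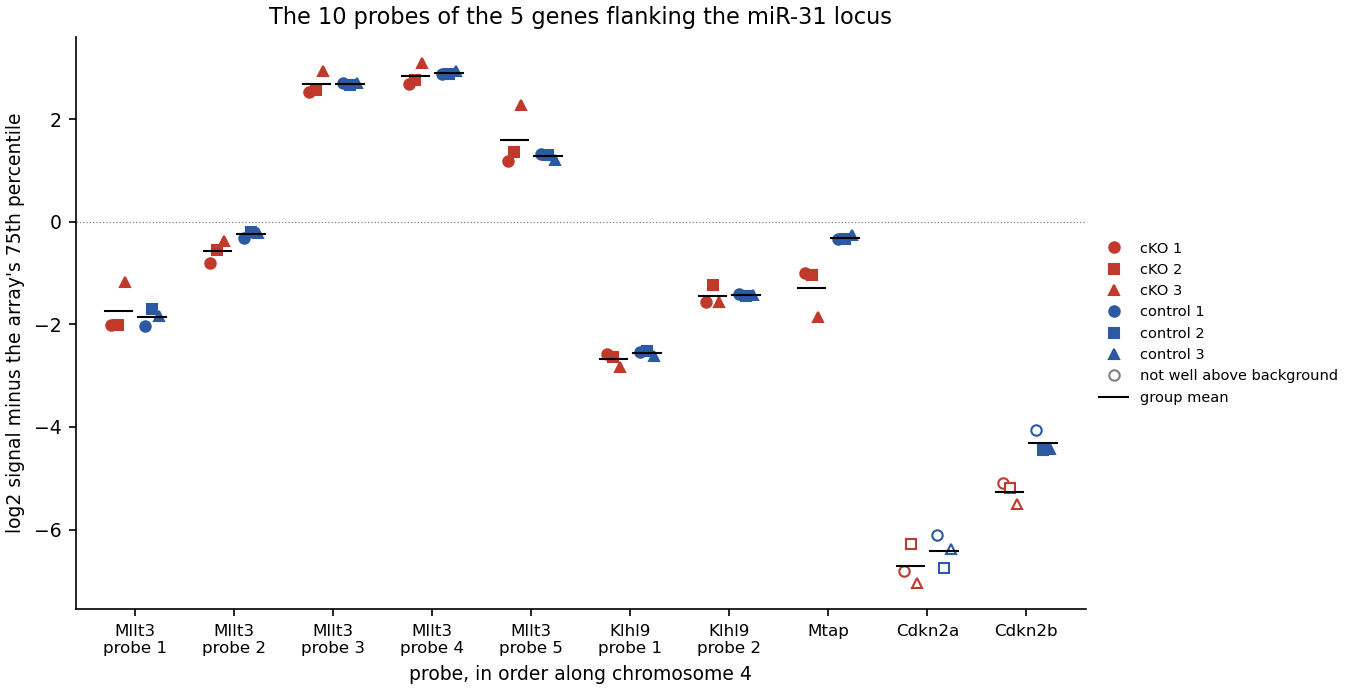
Log2 signal relative to each array's 75th percentile (vertical axis) for the 10 probes in their order along chromosome 4 (horizontal axis), with 1 point per array, cKO in red and control in blue, and open points where the probe was not well above background. The 3 cKO points of Mtap lie between -1.85 and -0.995, below the control points at -0.34 to -0.26, whereas the points of the other tested genes mostly interleave and cKO array 3 is apart on several Mllt3 probes.

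Mtap, the gene next to miR-31 on the side of Cdkn2a, had 1 probe (A_51_P341349, plus strand, chr4:88826213-88826272), which was well above background on all 6 arrays. Its processed signal, before scaling, was 527, 511 and 273 on cKO arrays 1 to 3 and 914, 860 and 894 on control arrays 1 to 3. Scaled, the cKO arrays read -0.995, -1.04 and -1.85 and the control arrays -0.33, -0.34 and -0.26. The controls agreed closely, the cKO arrays were all lower, and cKO array 3 was the lowest. The means were -1.30 ± 0.48 in cKO and -0.31 ± 0.045 in control cells (SD, n = 3 each), and 0.65 separated the highest cKO array from the lowest control array.

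The difference in Mtap was -0.99 (SE 0.24) on the log2 scale, or 1.98-fold lower in cKO cells, with p = 0.0062 in limma and p = 0.10 in the exact two-sided permutation test, the smallest that 3 against 3 allow. The adjusted p was 0.129. A difference at or below that of Mtap was found in 433 tested probes, 1.94% of them, and a p at or below it in 4.77%. Thus Mtap lay in the lower tail of the array without being unusual enough to pass the adjustment. Without cKO array 3, which correlated least with the others (r of 0.948 to 0.979, against 0.967 to 0.989 among the other arrays), the difference was -0.71 (SE 0.074) with an adjusted p of 0.077. With arrays weighted by their agreement it was -0.75 with an adjusted p of 0.028, the only one of the 20 alternatives in which Mtap passed. Under these weights 2205 of the 22281 tested probes passed, beside 54 as reported. After normexp background correction with scaling to the 75th percentile the difference in Mtap was -0.62 with an adjusted p of 0.54.

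The slide, which carries several arrays, was not balanced: the 3 cKO arrays and control array 1 shared a slide, and control arrays 2 and 3 were on another. Control array 1 read -0.33 for Mtap, between the readings of the other controls. Within the shared slide the 3 cKO arrays were 0.97 lower than control array 1 on the log2 scale (value -0.97, SE 0.42, adjusted p = 0.89 in limma), and with the slide as a term the difference was -0.97 (SE 0.37, adjusted p = 0.67). Both settings rest on the same comparison of 3 arrays with 1, whose lone control is assumed to vary like the other arrays, so the part of the slide in the difference was not tested beyond it.

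Cdkn2b lies beyond Mtap, and its probe (A_52_P498241, minus strand, chr4:88952437-88952496) is 126 kb from that of Mtap. It was dim: well above background on control arrays 2 and 3 and on none of the other 4, so it was not tested under the filter. Its processed signal was 30.9, 28.6 and 21.7 on cKO arrays 1 to 3 and 68.4, 49.97 and 49.3 on control arrays 1 to 3. Scaled, it read -5.09, -5.19 and -5.51 in cKO and -4.07, -4.45 and -4.44 in control cells. Every cKO array was below every control array, by at least 0.64.

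The group means of Cdkn2b were -5.26 ± 0.22 in cKO and -4.32 ± 0.22 in control cells (SD, n = 3 each). With the deposited background subtraction, the measured mean of Cdkn2b was 1.93-fold lower in cKO cells, no array of which measured it well above background. Raising cKO readings to the lowest signal detected on their array would not change this fold, since every one lay above it. The fold is thus the measured one and no lower bound, and it holds for that subtraction only. Control array 1, with the highest reading, was itself not well above background. In the limma fit without the filter, over all 41174 probes, its difference was -0.95 (SE 0.19) with p = 0.0026, an adjusted p of 0.25 and an exact permutation p of 0.10. Within the shared slide the difference was -1.19. The value rests on the background correction: after normexp correction it was -0.30 with quantile normalization and 0.52 with scaling to the 75th percentile, so the direction turned.

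Cdkn2a, between Mtap and Cdkn2b, had 1 probe sequence (A_51_P144813, minus strand, chr4:88920545-88920604) on 10 spots of each array. It was not well above background on any of the 6 arrays. The spots kept after removal of 1 or 2 outlier spots per array ranged from 6.88 to 17.3 in signal on cKO arrays and from 7.77 to 39.6 on control arrays. The brightest removed spot read 24.3, 38.1 and 36.6 on cKO arrays 1 to 3 and 135, 44.9 and 176 on control arrays 1 to 3. Well above background was judged on the kept spots only. The scaled means per array were -6.82, -6.27 and -7.05 in cKO and -6.11, -6.75 and -6.39 in control cells, with overlapping groups. No fold is given because neither group was well above background on any array. The single probe does not tell whether p16INK4a or p19ARF transcripts would have been read.

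**Figure D2:**
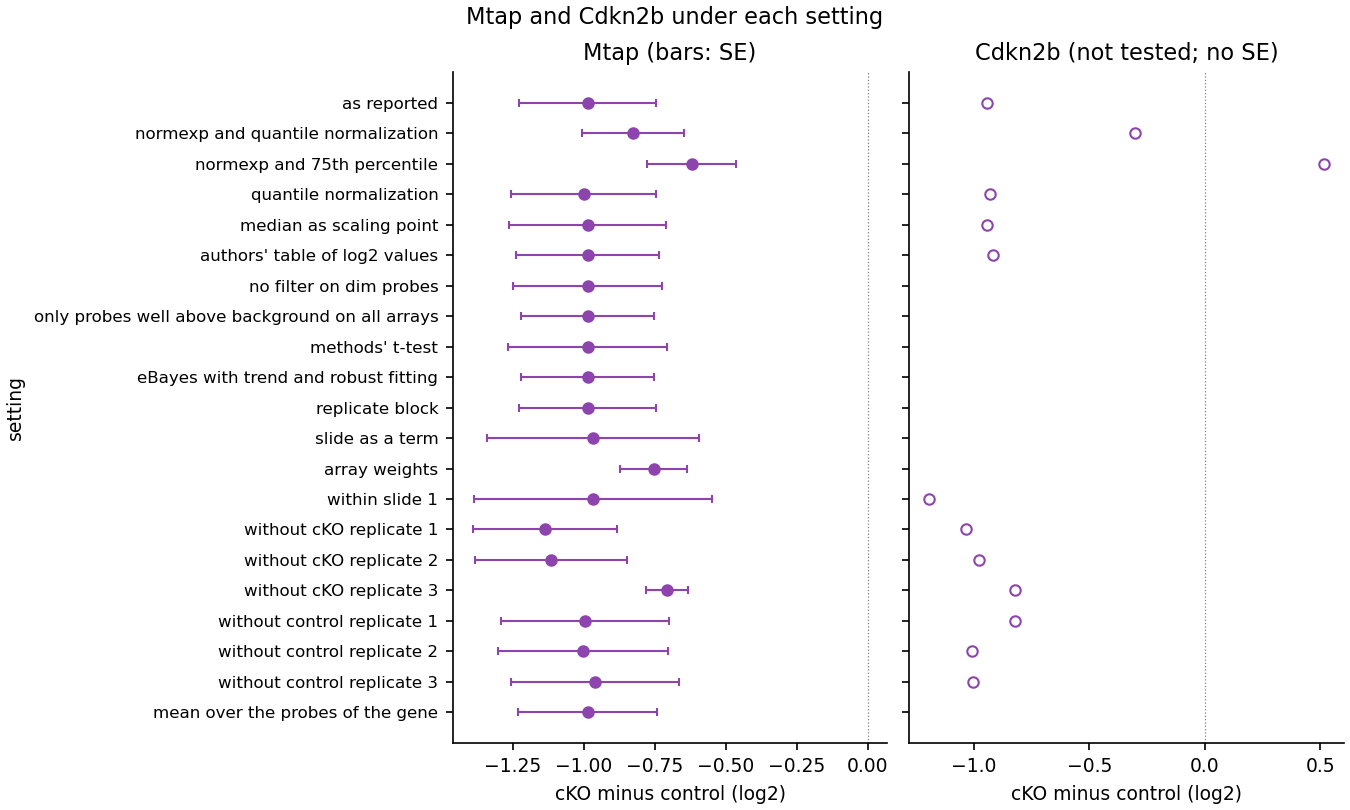
Difference between cKO and control arrays in log2 units (horizontal axis) for Mtap and Cdkn2b under the reported setting and each alternative (vertical axis), with the standard error as bars for Mtap; Cdkn2b was not tested and has no point where an alternative changes only the test. All Mtap points are below 0, from -1.14 to -0.62, whereas Cdkn2b ranges from -1.19 to 0.52 and is above 0 only after normexp correction with scaling to the 75th percentile.

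On the only probe of Mtap and the only probe of Cdkn2b the groups did not overlap, as on 36.6% of all tested probes. The same held for the Mllt3 probe A_52_P1066847, and Cdkn2b was not tested. Mtap and Cdkn2b are read from opposite strands. The 250 bases before their start sites, from RefSeq on GRCm38.p6, are shown in the direction of transcription to place the 2 promoters side by side. Both strands were searched for several motifs, and capitals mark the matches to GGGCGG (GC box), TGACGTCA (cAMP response element) or CCAAT. The Mtap window is chr4:89137120-89137369 (plus strand) and the Cdkn2b window chr4:89311033-89311282 (minus strand).
Mtap: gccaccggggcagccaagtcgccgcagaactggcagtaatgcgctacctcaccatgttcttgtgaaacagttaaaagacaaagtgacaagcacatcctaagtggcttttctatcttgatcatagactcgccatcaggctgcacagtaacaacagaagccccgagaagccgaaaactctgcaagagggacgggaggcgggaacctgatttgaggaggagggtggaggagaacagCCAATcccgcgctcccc
Cdkn2b: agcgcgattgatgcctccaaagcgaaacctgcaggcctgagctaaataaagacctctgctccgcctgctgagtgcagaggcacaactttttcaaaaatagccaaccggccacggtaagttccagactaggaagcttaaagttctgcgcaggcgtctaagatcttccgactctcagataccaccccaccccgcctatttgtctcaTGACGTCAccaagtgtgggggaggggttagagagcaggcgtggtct

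The Mtap window held 11 CpG dinucleotides and the Cdkn2b window 12, against a median of 6 over 32851 mouse promoter windows of the same length. Fewer CpG were held by 64.4% and 66.5% of windows. Of the other members, Klhl9 held 19, the 2 windows of Mllt3 23 and 4, and those of Cdkn2a 40 and 7. Mtap had 1 CCAAT match, a motif of 33.8% of the 32851 windows, and Cdkn2b had 1 TGACGTCA match, found in 1.55%. Neither window held GGGCGG, which 32.7% did, and the 3 motifs searched were not shared between the 2 windows. A match is a match of letters only.

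Klhl9, on the other side of miR-31, had 2 probes that do not overlap, 460 kb from the Mtap probe. The brighter one (A_52_P83615, minus strand, chr4:88366233-88366292) read -1.56, -1.24 and -1.57 in cKO and -1.41, -1.45 and -1.42 in control cells. The controls lay inside the range of the cKO arrays. The difference was -0.030 (SE 0.12, adjusted p = 0.90 in limma).

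The dimmer Klhl9 probe (A_52_P567839, chr4:88365514-88365573) read -2.58, -2.63 and -2.84 in cKO and -2.54, -2.52 and -2.62 in control cells. The groups overlapped, and the difference was -0.12 (SE 0.11, adjusted p = 0.50 in limma). Both Klhl9 probes, the brighter one first, differed by less than the SD of the cKO arrays (0.19 and 0.13). Both differences were larger than the SD of the control arrays (0.020 and 0.051).

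Mllt3, the member farthest from miR-31, had 5 probes on the minus strand over about 4 kb, 1.41 Mb from the Mtap probe. The brightest (A_52_P619007, chr4:87418602-87418661) read 2.68, 2.77 and 3.099 in cKO and 2.88, 2.88 and 2.93 in control cells, a difference of -0.050 (SE 0.14, adjusted p = 0.83 in limma). Its neighbour A_51_P394484, which shares 40 bases of target with it, read 2.54, 2.56 and 2.95 in cKO and 2.70, 2.66 and 2.70 in control cells and differed by -0.0036. On both, cKO arrays 1 and 2 were below and cKO array 3 above every control.

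The other 3 Mllt3 probes did not run together. A_52_P329934 (chr4:87419915-87419974) read 1.19, 1.36 and 2.27 in cKO and 1.31, 1.30 and 1.21 in control cells, so that its difference of 0.33 (SE 0.28, adjusted p = 0.49 in limma) came from cKO array 3, and without that array it was -0.0016. A_52_P530665 (chr4:87415812-87415842) read -2.01, -2.02 and -1.17 in cKO and -2.03, -1.70 and -1.84 in control cells, a difference of 0.13 (SE 0.26, adjusted p = 0.77). On these probes too, cKO array 3 was the highest of the 6 arrays.

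The remaining probe A_52_P1066847 (chr4:87415836-87415895), which shares 7 bases with the last, read -0.80, -0.55 and -0.37 in cKO and -0.31, -0.20 and -0.21 in control cells. Here all cKO arrays were below all controls, by 0.061 at the closest. The difference was -0.33 (SE 0.14) with p = 0.049 in limma and 0.10 in the exact permutation test, and an adjusted p of 0.22, and the probe counts as one of the 2 members with an unadjusted p under 0.05. The 5 probes of Mllt3 therefore disagreed in sign, with 2 above 0 and 3 below, and no probe passed the adjusted threshold.

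To see how the surroundings of the members behaved, all other probes from 1 Mb before the first to 1 Mb after the last member probe were taken. There were 43, of 32 gene names, and 26 were not well above background on any array. The 11 that were tested came from 10 gene names and had differences from -0.42 to 0.82, with a median of -0.061 against -0.044 over all tested probes. None had an adjusted p under 0.05 and none an unadjusted p under 0.05 in limma, beside 23.0% of all tested probes (adding a further 1 Mb on each side gave 1 of 15), and in 3 of the 11 the groups did not overlap, beside 36.6%.

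Of the tested neighbours between Mllt3 and Ifne that are not interferon genes, AK048577, a transcript next to Mllt3, differed by -0.42 (SE 0.21, adjusted p = 0.27) and by -0.21 without cKO array 2. Focad, a focal adhesion protein gene, differed by -0.081 (SE 0.093, adjusted p = 0.60), and the unnamed transcript NAP099398-001 by -0.061 (SE 0.10, adjusted p = 0.73). None of these differences, by limma, passed the threshold.

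The type I interferon genes, which lie between Focad and miR-31 and signal antiviral defence, had 10 probes. Of these, 5 probes, including those of Ifnb1 and Ifne, were not well above background on any array, and 3 were tested. Ifna13 differed by 0.82 (SE 0.45, adjusted p = 0.31), and by 0.38 without cKO array 1 and 0.51 without control array 1, Ifna9 by -0.11 (SE 0.14, adjusted p = 0.64) and Ifnz by 0.10 (SE 0.12, adjusted p = 0.61), all from limma. Interferon-α genes are near-identical copies, so a probe may have read several of them.

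Before Mllt3, the ribosomal protein gene Rps6 was the brightest gene of the neighbourhood, with means of 6.48 in cKO and 6.51 in control cells and a difference of -0.033 (SE 0.10). The ceramidase gene Acer2 differed by 0.055 (SE 0.18), ENSMUST00000164590 by -0.25 (SE 0.14) and the brighter probe of the Rab regulator Dennd4c by -0.14 (SE 0.21), while its dimmer probe differed by 0.41 (SE 0.17, adjusted p = 0.22). Beyond Cdkn2b, the probes of Dmrta1 and Zfp352 were not well above background on more than 1 array, so that Mtap is the last tested gene on that side of the neighbourhood.

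**Figure D3:**
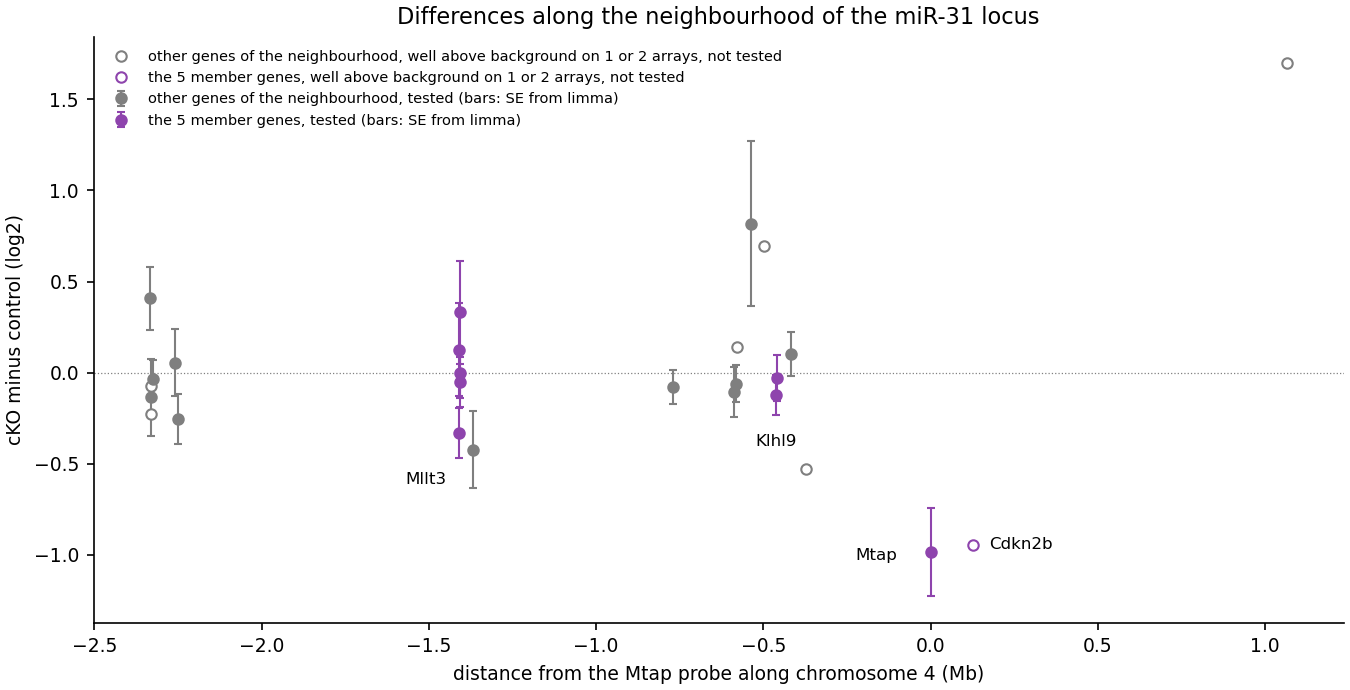
Difference between cKO and control arrays in log2 units (vertical axis) against distance from the Mtap probe along chromosome 4 in Mb (horizontal axis), with members in purple, other probes in grey, standard errors as bars on tested probes and open circles for probes well above background on 1 or 2 arrays only. Mtap at -0.99 and Cdkn2b at -0.95 are the lowest points, and the tested probes from Dennd4c to Ifnz scatter around 0 between -0.42 and 0.82.

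Along the whole of chromosome 4, 1330 tested probes outside the 5 genes had a median difference of -0.064, and 19 of them were at or below the value of Mtap. Of those within 10 Mb of the Mtap probe none was: 6 lay within 2 Mb and 55 between 2 and 10 Mb, with medians of -0.071 and -0.017. The unadjusted p was under 0.05 for 21.4% of the chromosome's probes and for 23.1% of all other tested probes.

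By their values over the 6 arrays, the tested probes most like that of Mtap were those of the chromatin protein gene Hmgb2 (Pearson r = 0.999), Zfand2a (0.999) and the histone gene Hist1h2ab (0.999). Those most like Klhl9 were Ptgfrn (0.998), Megf9 (0.990) and U2af1 (0.987), and those most like the brightest Mllt3 probe were Dapp1 (0.994), Rasgef1b (0.993) and St3gal6 (0.988). With 6 arrays and 22261 probes to choose from, r near 1 is found for every member, and the values are a description.

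Genes that act with the members were taken from 4 lists of known partners, with the members left out and a gene read from its brightest tested probe. Of 58 genes 56 were tested. An unadjusted p under 0.05 was reached by 17 (30.4%), 9 lower and 8 higher in cKO cells, beside 23.0% of all tested probes, and none had an adjusted p under 0.05 in limma. The lists as a whole thus held both directions, and their differences below are given as values that did not pass the adjusted threshold.

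Of the 15 methionine salvage and polyamine genes, 12 were below 0 and 3 above, with a median of -0.19 against -0.044 over all tested probes. The unadjusted p was under 0.05 for 4 lower and 1 higher gene. Srm, the spermidine synthase whose by-product Mtap degrades, differed by -0.98 (SE 0.35, adjusted p = 0.19). Wdr77, the partner of the arginine methyltransferase Prmt5, differed by -0.76 (SE 0.24, adjusted p = 0.17).

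Among the enzymes after Mtap in the pathway, Mri1, which takes its product, differed by -0.042 (SE 0.24). Enoph1 differed by -0.53 (SE 0.19, adjusted p = 0.19), and Adi1, the dioxygenase that follows it, was the one gene of this list with a high value, at 1.51 (SE 0.26, adjusted p = 0.088). Mat2a, which makes S-adenosylmethionine from methionine, differed by -0.73 (SE 0.28, adjusted p = 0.20). Without cKO array 3 these differences were smaller, at -0.58 for Srm, -0.49 for Wdr77, -0.33 for Enoph1 and -0.42 for Mat2a. The route was not read as lower or higher throughout.

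Of the 19 genes of the INK4 and ARF axis, 11 were below 0 and 8 above, with a median of -0.13. The kinases that Cdkn2a and Cdkn2b inhibit differed by -0.40 (Cdk4, SE 0.18, adjusted p = 0.24) and -0.22 (Cdk6, SE 0.28, adjusted p = 0.64), and by -0.20 and 0.10 without cKO array 3. Of the 2 INK4 genes outside the locus, Cdkn2c (p18INK4c) differed by -0.60 (SE 0.14, adjusted p = 0.12) and Cdkn2d (p19INK4d) by 0.48 (SE 0.12, adjusted p = 0.14). Both were bright, at means of 2.16 and 3.97 over the 6 arrays, where Cdkn2b was near background.

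The CDK inhibitor gene Cdkn1a (p21) differed by 0.87 (SE 0.16, adjusted p = 0.097) and Rbl1, of the retinoblastoma family, by -0.54 (SE 0.15, adjusted p = 0.15). For the ARF arm, Mdm2 differed by 0.14 (SE 0.095) and Trp53 by -0.20 (SE 0.21). The CDK inhibitor genes outside the locus thus lay on both sides of 0, with no value past the adjusted threshold.

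Of the 5 tested genes around the KLHL9 ligase all were below 0, by a median of -0.25 against -0.044 over all tested probes. None had an unadjusted p under 0.05 in limma. Cul3, the scaffold, differed by -0.25 (SE 0.12), Rbx1, its RING subunit, by -0.10 (SE 0.14), Nedd8, which activates it, by -0.26 (SE 0.16), and its substrate Aurkb by -0.29 (SE 0.13), with the lowest adjusted p of the list at 0.24. With 1 array left out at a time, Cul3 ranged from -0.30 to -0.15 and Rbx1 from -0.19 to 0.024. Nedd8 then ranged from -0.37 to -0.096 and Aurkb from -0.38 to -0.18. Klhl13, the adaptor that pairs with Klhl9, was not tested.

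Of the 17 genes around MLLT3, 10 were below 0 and 7 above, with a median of -0.12. Eaf2, which binds ELL proteins, differed by 0.69 (SE 0.099, adjusted p = 0.066), although its other tested probe gave -0.34. The scaffold genes Aff3 and Aff4 differed by 0.68 (SE 0.23, adjusted p = 0.18) and 0.42 (SE 0.12, adjusted p = 0.15), with a probe of Aff4 at -0.42, and Eaf1 by -0.35 (SE 0.12, adjusted p = 0.18). The kinase Cdk9 differed by -0.12 (SE 0.11) and Dot1l by -0.17 (SE 0.18).

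**Figure D4:**
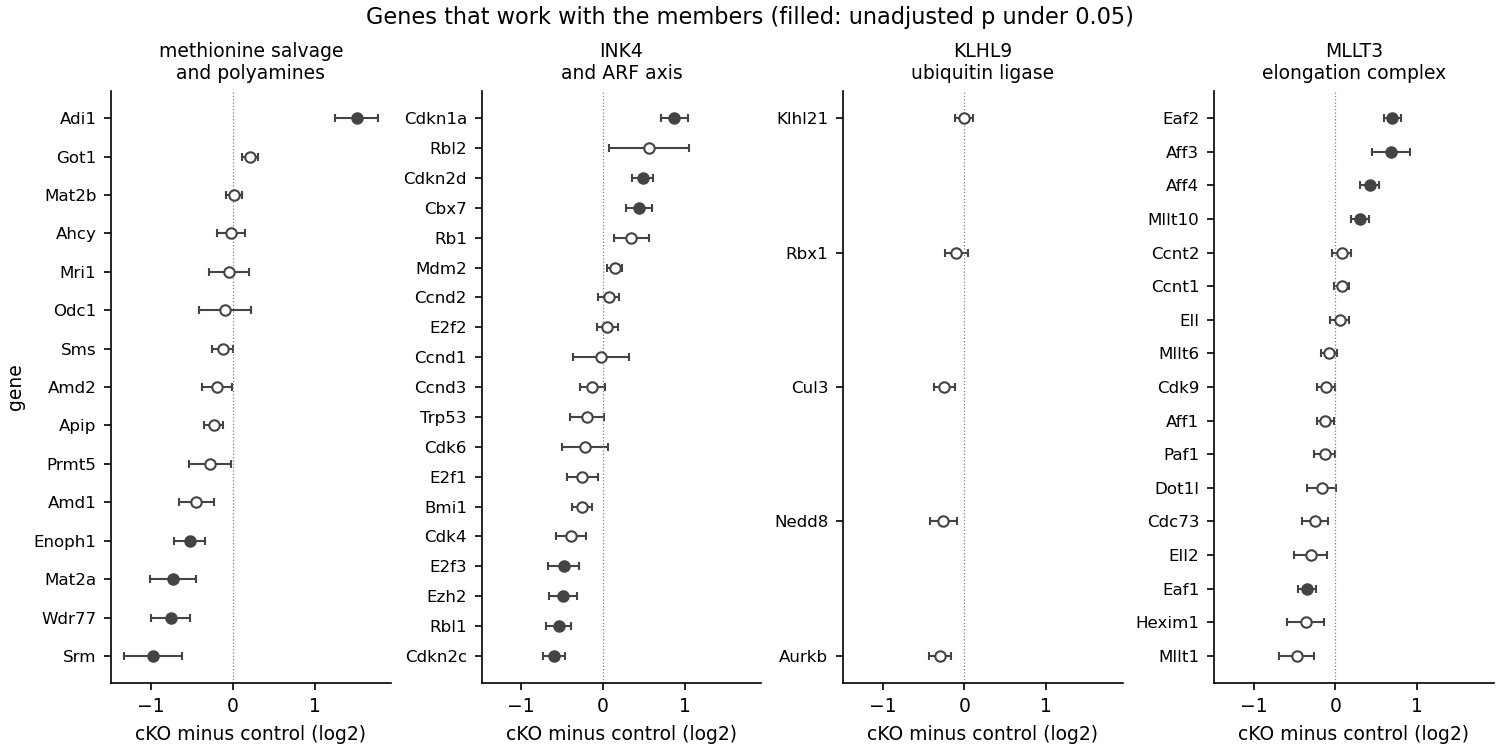
Difference between cKO and control arrays in log2 units (horizontal axis) with its standard error for the tested genes of the 4 partner lists (vertical axes), ordered by the difference and filled where the unadjusted limma p was under 0.05. Each list but that of the KLHL9 ligase holds filled points on both sides of 0, from -0.98 for Srm to 1.51 for Adi1.

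The cells were checked against markers of their type. All 7 T cell and all 6 Treg markers, Foxp3 among them, were well above background on all 6 arrays. The mean of the T cell markers was 3.61 to 4.00 on cKO arrays and 3.43 to 3.53 on control arrays, that of the Treg markers 2.96 to 3.17 and 2.70 to 3.08. Of the T cell markers, Cd3e differed by -0.28 and Lck by -0.088. Cd3g differed by 0.74, Cd4 by 0.66, Cd28 by 0.43, Cd3d by 0.38 and Cd5 by 0.11. The cKO and control arrays did not overlap for Cd3e, Cd3d, Cd3g, Cd4 and Cd28, beside 36.6% of all tested probes. No T cell marker had an adjusted p under 0.05 in limma. The Treg markers did not move together: Foxp3, the defining factor, read 3.17, 3.12 and 2.45 in cKO and 3.42, 3.42 and 3.76 in control cells, a difference of -0.62 (SE 0.22, adjusted p = 0.19 in limma) with every cKO array lower. Il2ra differed by -0.56 (SE 0.33, adjusted p = 0.33) and Ctla4 by 0.94 (SE 0.24, adjusted p = 0.14), with every cKO array higher for Ctla4. The other Treg markers were above 0: Itgae at 0.85 (SE 0.42), Tnfrsf18 at 0.40 (SE 0.21) and Ikzf4 at 0.063 (SE 0.095). The CD8 T cell markers Cd8a and Cd8b1 were also well above background, with means of 0.46 to 0.95 on cKO and 0.96 to 1.37 on control arrays. B cell, myeloid, NK and erythroid markers were dim, with 1 of 5, 1 of 6, 0 of 3 and 1 of 4 well above background on all arrays and Pax5, Emr1, Klrb1c, Klre1, Alas2 and Epb4.2 on none. Among them, the haemoglobin gene Hbb-b1 differed by 2.10 (SE 0.64, adjusted p = 0.16) and the Fc receptor chain gene Fcer1g by -0.80 (SE 0.32, adjusted p = 0.21), with no overlap between groups in either. The groups did not overlap for the NK marker Ncr1 either, with a difference of 1.80. Ncr1 was well above background on 2 cKO and 0 control arrays and so was not tested. The part of any of these markers in the difference in Mtap was not tested, and in bulk RNA fewer cells of a type and less RNA per cell cannot be told apart.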

How the data were processed

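RNA of iTreg cells from 3 cKO and 3 control mice was labelled with Cy3 and read on 1 Agilent one-colour array per mouse. The authors extracted the spots with Agilent Feature Extraction (9.1 in the submitters' processing notes, 10.7.3.1 in the file headers), and the deposited intensity of a spot is linear, background-subtracted and detrended within the array, not normalized between arrays. A deposited table of log2 values, with column medians of 6.15 and correlations of at least 0.998 with the log2 signal of the same array, was used as an alternative and read as quantile-normalized, since its normalization is not given in the sources used here. All 6 columns were assigned, leaving 0 unused.

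Each array held 45018 spots, with 49.3 to 57.7% well above background, a 75th percentile of 987 to 1148 and 123 to 140 outlier spots, which were dropped; 19 tested probes lacked a value on an array. The log2 signal minus the array's 75th percentile, averaged over a probe's spots, was compared for probes well above background on at least 3 arrays with limma 3.58.1 (lmFit, eBayes; R 4.3.3) and Benjamini-Hochberg adjustment over all 22281, at a threshold of 0.05. Single probes were also compared by the exact permutation test (scipy 1.17.1). For a group not well above background on any array, its level was set to the higher of its own value and the lowest value well above background on that array. The number of arrays limits the precision. The fit was tested on simulated data.

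Positions and names are those of the array annotation (mm9). Of 28049 probes with a RefSeq accession, 27662 were matched to the RefSeq table (GRCm38.p6), used for names and gene order. The partner, marker and neighbour lists and the 5 genes were chosen with earlier results of these data known. Named were every member probe, every tested gene of the neighbourhood, in each partner list up to 4 genes with the lowest p and those closest to the member by role, and 3 genes with the most similar values for each member with a tested probe. Alternatives were normexp correction (offset 50), other normalizations, the authors' table, other filters, the methods' t-test, robust fitting with a trend, a term for the replicate number or the slide, array weights (statmod 1.5.0), each array left out, the mean over a gene's probes and a neighbourhood of 0.5 or 2 Mb; the comparison within a slide was added after seeing the data.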

Additional observations from a re-analysis of the deposited data

How the results depend on the processing

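Mtap was below 0 under all 20 alternatives, from -1.14 to -0.62. It passed the adjusted threshold with array weights only (-0.75), where 2205 of the 22281 tested probes passed. Leaving out 1 array at a time gave -1.14 to -0.71 for Mtap, -1.03 to -0.82 for Cdkn2b, -0.14 to 0.029 for the brighter Klhl9 probe and -0.18 to 0.034 for the brightest Mllt3 probe. No member probe passed the adjusted threshold other than 1 with array weights, and the number with an unadjusted p under 0.05, 2 as reported, was 1 to 2 without 1 array, 0 within the shared slide and 1 with either normexp correction, the authors' table, the methods' t-test, the replicate block or the slide as a term. In the neighbourhood that number, 0 as reported, was 1 after normexp with the 75th percentile, quantile normalization, median scaling, the authors' table, the replicate block and a 2 Mb flank, 2 with no filter and with array weights, and 0 to 1 without 1 array. Its median was 0.45 after normexp with the 75th percentile and 0.13 with the slide as a term and within the shared slide, and -0.090 to 0.0035 without 1 array. The first of these settings moved the median of all tested probes by 0.15, the slide term by 0.041. Of the partner genes, 17 as reported, 5 passed the unadjusted threshold after that normexp setting, 11 in the methods' t-test, 4 with the slide as a term, 2 within the shared slide and 7 to 21 without 1 array (9, 7 and 7 without control arrays 1, 2 and 3).

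The remaining changes of direction follow, and their cause was not tested. Cdkn2b was -0.30 after normexp with quantile normalization, 0.52 with the 75th percentile and -1.19 within the shared slide. After normexp with the 75th percentile, the Klhl9 probes gave 0.24 and 0.47, Dennd4c 0.45, AK048577 0.17 and Ifna9 0.80; after normexp with quantile normalization, Rps6 gave 0.031, Acer2 -0.012 and Mri1 0.016. With the slide as a term or within the shared slide, Dennd4c gave 0.16, Rps6 0.015, Ifna9 0.13, NAP099398-001 0.023 and Mri1 0.19. With array weights, the brighter Klhl9 probe gave 0.11, an Mllt3 probe (A_52_P530665) -0.17, Acer2 -0.089, Mri1 0.096, Cdk6 0.069, Trp53 0.024, Rbx1 0.019 and Dot1l 0.082. Mllt3 gave 0.014 as the mean over its probes, and A_51_P394484 gave 0.021 with quantile normalization and 0.022 with the authors' table. Without 1 array the Mllt3 probes A_52_P530665, A_51_P394484 and A_52_P329934 ranged from -0.16 to 0.27, -0.14 to 0.068 and -0.0016 to 0.54, Acer2 from -0.11 to 0.19, Dennd4c from -0.28 to 0.076, Rps6 from -0.089 to 0.0035, Cdk6 from -0.42 to 0.10, Mri1 from -0.23 to 0.14, Rbx1 from -0.19 to 0.024 and Trp53 from -0.37 to 0.029.

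Across the array, 54 probes passed the adjusted threshold as reported, 112 after normexp with quantile normalization, 26 with quantile normalization, 28 with the authors' table, 174 when each array had to be well above background, 105 with trend and robust fitting, 2205 with array weights, 0 to 1 without 1 array and 0 with the other normexp setting, no filter, the t-test, the replicate block and both slide settings. Samples with the same replicate number did not deviate together (r of -0.14, 0.0076 and -0.19), beside -0.17 to 0.27 for samples with different numbers. Whether the numbers pair the mice cannot be told from so few values. With the replicate block Mtap differed by -0.99 with an adjusted p of 0.27, and 13 partner genes had an unadjusted p under 0.05. Signal over background limits Cdkn2a, not well above it on any array, and Cdkn2b, whose difference depends on the background correction. Leaving out cKO array 3 also lowered the size of some partner genes by over 1.5 times without a change of sign, to -0.58 for Srm, -0.49 for Wdr77, -0.42 for Mat2a and -0.33 for Enoph1.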
